A study of Mus musculus with 6 samples.

Results

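The genes described here handle iron and heme in colonic MΦs: *Hmox1*, *Blvra*, *Blvrb*, *Slc40a1*, *Slc11a1*, *Fth1*, *Ftl1*, *Tfrc*, *Spic* and *Hfe*. They were chosen by symbol, with earlier results of these data known, and all 10 were found among the 14097 genes of the table. RNA-seq was performed on 6 libraries of FACS-sorted P3/P4 MΦs, the Ly6C- MHCII+ fraction of CD64+ cells in the colonic lamina propria (LP). There was 1 library for each genotype, *Il10rb*-/- or *Il10rb*+/-, at 1, 3 and 12 weeks of age. All mice were untreated and on the 129SvEv background. *Il10rb*-/- mice carry a germline deletion of the IL10 receptor β chain in every cell, not only in MΦs, and the *Il10rb*+/- controls keep 1 intact allele. Each library at 3 and 12 weeks was made from 1 mouse and each 1-week library from a pool of mice, so age and pooling cannot be told apart. Since each group is 1 library, differences between genotypes within an age have no replicate to check them. The spread between the libraries of an age is spread between mice or pools of the 2 genotypes.

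MΦs take up heme with hemoglobin and aged erythrocytes. Heme oxygenase 1 (*Hmox1*) opens the heme ring and frees its iron, and the biliverdin reductases (*Blvra*, *Blvrb*) turn the biliverdin that is left into bilirubin. Freed iron is stored in ferritin, a shell of heavy (*Fth1*) and light (*Ftl1*) subunits, or leaves the cell through ferroportin (*Slc40a1*), the only known iron exporter of mammals. *Tfrc* encodes the transferrin receptor that brings in plasma iron, *Slc11a1* encodes NRAMP1, which moves metal ions out of the phagosome, and *Hfe* encodes a class I-like protein that binds the transferrin receptor and takes part in iron sensing. *Spic* encodes an ETS factor that heme induces and that red pulp MΦs of the spleen need. In MΦs, inflammation is known for raising ferritin and lowering ferroportin, which keeps iron from microbes.

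Ferritin, ferroportin and the transferrin receptor are also set after transcription, by iron regulatory proteins that bind iron-responsive elements in the mRNA. These hairpins are shown because RNA-seq reads the mRNA level and not what these proteins do to its translation. The untranslated parts of the transcripts (GENCODE annotation of GRCm38, the same build as mm10) were searched for a bulged C, a stem of 5 base pairs (G-T allowed) and the loop CAGTGN with N not G. A match before the coding region was found in *Fth1*, *Ftl1* and *Slc40a1*, and in 0.131% of 13693 genes searched. Matches after the coding region were found 4 times in *Tfrc*, and in 0.635% of the genes. In the lines that follow, 30 bases of each exonic site are given 5′ to 3′ on the gene's strand, and capitals mark the loop.
*Fth1*, chr19:9982732-9982761, plus strand: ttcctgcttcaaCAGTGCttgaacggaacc
*Ftl1*, chr7:45459778-45459807, minus strand: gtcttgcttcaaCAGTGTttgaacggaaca
*Slc40a1*, chr1:45925464-45925493, minus strand: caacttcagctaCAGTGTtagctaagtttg
*Tfrc*, chr16:32631219-32631248, plus strand: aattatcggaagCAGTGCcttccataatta
*Tfrc*, chr16:32631598-32631627, plus strand: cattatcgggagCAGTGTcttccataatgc
*Tfrc*, chr16:32631663-32631692, plus strand: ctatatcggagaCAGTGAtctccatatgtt
*Tfrc*, chr16:32631710-32631739, plus strand: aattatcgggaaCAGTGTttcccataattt
A site before the coding region lets the bound protein block translation, and sites behind it protect the mRNA from decay. The deposited values cannot show the first of these. No match was found in the untranslated parts of the other 6 genes. On the same build the genes themselves span chr19:9980598-9985098 (*Fth1*), chr7:45457944-45459884 (*Ftl1*), chr1:45908068-45926523 (*Slc40a1*), chr16:32608920-32632794 (*Tfrc*) and chr8:75093621-75100589 (*Hmox1*). *Blvra* spans chr2:127070665-127097084, *Blvrb* chr7:27447978-27466144, *Slc11a1* chr1:74375195-74386062, *Spic* chr10:88674772-88685015 and *Hfe* chr13:23702034-23710854.

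The libraries held between 6700337 reads (3-week *Il10rb*+/-) and 40754971 reads (12-week *Il10rb*+/-) on the listed genes. *Il10rb* itself stood at 1221, 939 and 1107 normalized counts in *Il10rb*+/- MΦs at 1, 3 and 12 weeks, and at 12.0, 24.6 and 27.4 in *Il10rb*-/- MΦs, as labelled. All 12 listed resident MΦ markers had reads in every library. In the 12-week *Il10rb*-/- library 7 of the 12 were over 3-fold lower than in its control, among them *Cd163*, *Mrc1* and *Cx3cr1*. In the same library 6 of 8 neutrophil markers past the filter given below were over 3-fold higher. *S100a8*, *S100a9*, *Cxcr2*, *Ngp* and *Ltf* passed it through that library alone, so their higher values there were set by the filter. The same held for *Vcan* among the monocyte markers. *Csf3r* passed in every library and stood at 1420 normalized counts in the 12-week control and 6944 in the 12-week *Il10rb*-/- library. *Mmp9* was lower in the latter, at 1090 and 416. Of 8 monocyte markers 5 were over 3-fold higher and 2 lower, and of 10 epithelial markers past the filter 5 were over 3-fold higher and 1 lower. All 7 B and plasma cell markers were over 3-fold lower there, their summed level being 17670 normalized counts in the 12-week control and between 752 and 2323 in the others. The summed neutrophil markers came to 12862 normalized counts there and to between 1847 and 3954 in the other libraries. At 1 week 5 of the 10 epithelial markers were over 3-fold higher in *Il10rb*-/- MΦs and 0 lower, with a summed level of 188 normalized counts in the control pool and 981 in the *Il10rb*-/- pool. The monocyte markers summed to 5056 and 11554 in these pools, of which *Ccr2* made up 3960 and 10700. At 3 weeks 0 epithelial markers were over 3-fold higher and 1 was lower, and of the monocyte markers 3 were higher and 1 lower. Y-linked genes were at a summed 1113 normalized counts in the 1-week *Il10rb*+/- pool and at 29.3 or less elsewhere, so the sexes of the mice differed between libraries. Sex therefore cannot be told apart from genotype at 1 week, nor from age in the step from 1 to 3 weeks in the controls. Of 12 erythroid markers 4 were in the table, and the globin genes *Hba-a1*, *Hba-a2* and *Hbb-b1* stood at 34.1 normalized counts or less in every library. The 1 erythroid marker past the filter was *Epor*, the erythropoietin receptor. In bulk RNA, fewer cells of a type and less RNA per cell cannot be told apart.

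Between genotypes, *Slc40a1*, *Spic*, *Fth1*, *Hfe* and *Hmox1* were furthest apart at 12 weeks. *Tfrc* was furthest apart at 3 weeks, and *Ftl1* and *Blvrb* at 1 week. A difference over 3-fold was taken as a call, among the 11067 genes that reached 50 normalized counts in at least 1 library. All 10 genes passed that filter. At 1 week 0 of 10 were over 3-fold apart, beside 3.5% of the 11067 genes. At 3 weeks it was again 0 of 10, beside 1.98%. At 12 weeks *Slc40a1* and *Spic* were over 3-fold lower in *Il10rb*-/- MΦs, 2 of 10 beside 14.0%. The median log2 ratio (*Il10rb*-/- over *Il10rb*+/-) of the 10 genes was 0.06, -0.11 and -0.25 at the 3 ages, and that of all genes past the filter was -0.04, 0.02 and 0.04. These shares do not set the group apart from other genes. The genes are therefore described one by one.

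**Figure D1:**
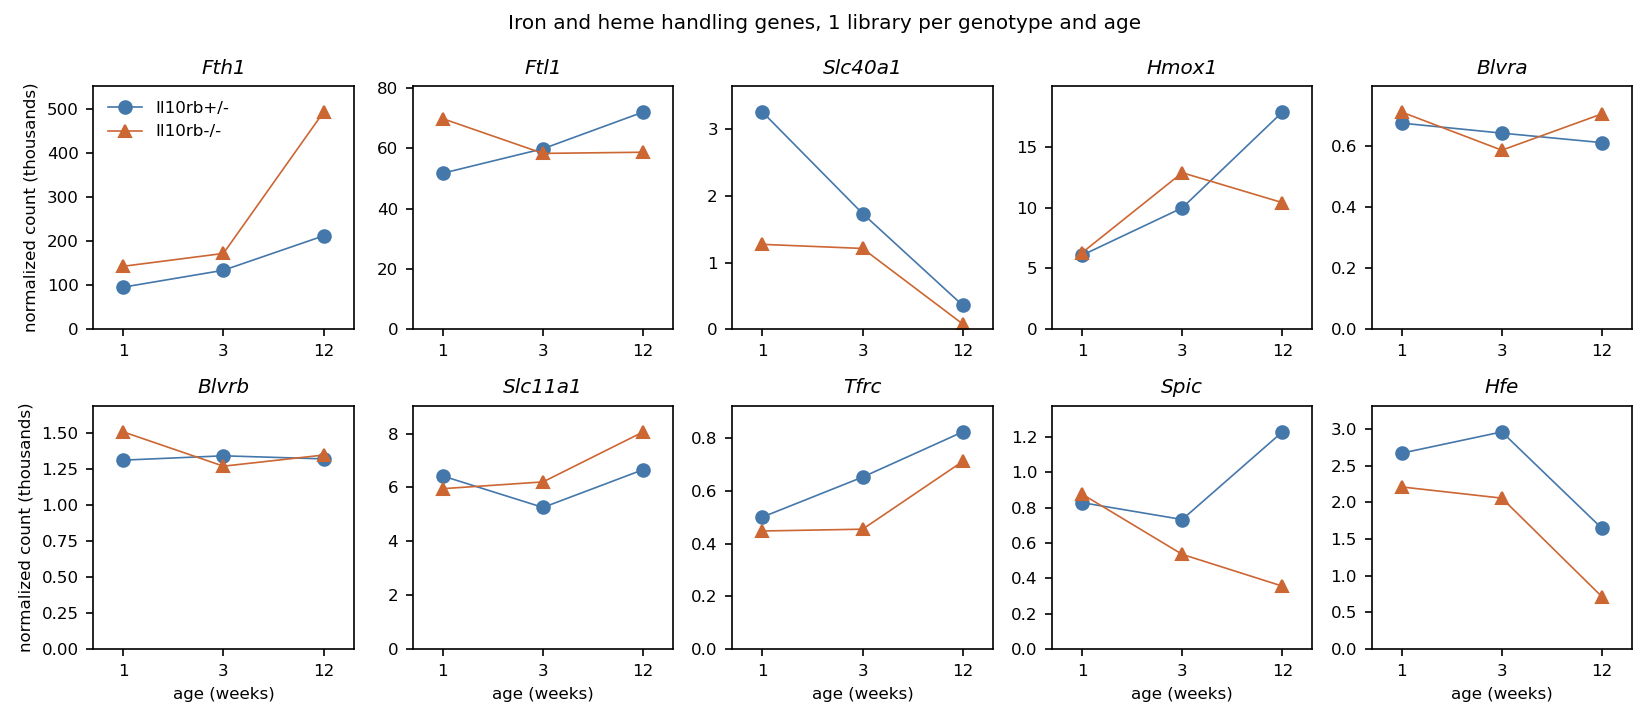
Normalized counts (linear axes from 0, with the unit on each axis) of the 10 iron and heme handling genes against age in weeks, 1 point per library, with *Il10rb*+/- as circles and *Il10rb*-/- as triangles. *Fth1* reaches 492236 normalized counts in the 12-week *Il10rb*-/- library, *Slc40a1* is lowest at 12 weeks in both genotypes, and *Blvra* and *Blvrb* are nearly flat.

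The heavy ferritin subunit was the most abundant of these mRNAs and was higher without *Il10rb* at every age. *Fth1* stood at 95385, 133700 and 211709 normalized counts in *Il10rb*+/- MΦs at 1, 3 and 12 weeks. In *Il10rb*-/- MΦs it stood at 142702, 171849 and 492236. The lowest *Il10rb*-/- library lay between the 3-week and 12-week controls, so the genotypes overlapped across ages, and the 12-week *Il10rb*-/- library lay above all others. The log2 ratio was 0.58 (95% counting interval 0.57 to 0.59), 0.36 (0.35 to 0.38) and 1.22 (1.21 to 1.22) at the 3 ages, the last being 2.33-fold. These exact intervals come from the reads of the 2 libraries and cover counting error only. *Fth1* was the 1 gene of the 10 whose interval lay above 0 at all 3 ages, which 5.69% of all genes past the filter also showed. It took 0.643% of the reads of the 1-week control and 2.19% of those of the 12-week *Il10rb*-/- library, where it was at rank 3 among all genes.

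In normalized counts the light subunit was higher at each later age in the controls, as the heavy one was, but not in *Il10rb*-/- MΦs. *Ftl1* stood at 51714, 59825 and 71976 normalized counts in the controls and at 69778, 58277 and 58667 in *Il10rb*-/- MΦs. In the controls *Ftl1* took 0.349%, 0.367% and 0.374% of the reads. On the TPM scale described below it stood there at 7986, 7974 and 7734, so the rise of *Ftl1* in the controls depends on the scaling. Its *Il10rb*-/- library was the higher of the pair at 1 week, by 1.35-fold, and the lower at 12 weeks, by 1.23-fold, with a log2 ratio of -0.29 (-0.31 to -0.28). The ratio of *Fth1* to *Ftl1* normalized counts was 1.84 in the 1-week control and 2.94 in the 12-week control. It was 8.39 in the 12-week *Il10rb*-/- library. That quotient is taken within a library, so no scaling between libraries changes it. *Ftl1* overlaps an annotated miRNA gene and a gene model on the opposite strand, and 2 pseudogenes carry its name, so reads shared with such copies are uncertain. Of the other storage genes, *Ncoa4*, which brings ferritin to its breakdown, stood between 709 and 1412 normalized counts, and the iron chaperones *Pcbp1* and *Pcbp2* were within 3-fold of the control at each age.

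Ferroportin differed in the other direction. *Slc40a1* stood at 3257, 1735 and 358 normalized counts in the controls at 1, 3 and 12 weeks and at 1273, 1212 and 78.3 in *Il10rb*-/- MΦs. The *Il10rb*-/- library was the lower one at each age, and both 12-week libraries were below all younger ones. The log2 ratio was -1.36 (-1.47 to -1.25) at 1 week, -0.52 (-0.65 to -0.39) at 3 weeks and -2.19 (-2.48 to -1.92) at 12 weeks. The lowest value rests on 123 reads. *Slc40a1* and *Hfe* were the 2 genes of the 10 whose intervals lay below 0 at all 3 ages, as did those of 4.81% of all genes past the filter. With 1 and 3 weeks alone these 2 genes, and *Fth1* above 0, still made up the count, beside 6.97% of all genes below and 7.09% above 0.

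The fall of *Slc40a1* with age was widest from 3 to 12 weeks. In the controls it dropped 4.84-fold in that step, close to its 4.58-fold genotype difference at 12 weeks. In *Il10rb*-/- MΦs it dropped 15.5-fold. It was the 1 gene of the 10 over 3-fold apart in that step in either genotype, beside 6.36% of all genes in the controls and 14.2% in *Il10rb*-/- MΦs. From 1 to 3 weeks 0 of 10 were over 3-fold apart in either genotype, beside 6.56% and 5.02%. In that step *Slc40a1* was 1.88-fold lower at 3 weeks in the controls, and its interval in *Il10rb*-/- MΦs held 0 (log2 -0.07, -0.20 to 0.05). Ceruloplasmin (*Cp*), the ferroxidase that works beside ferroportin, was also lower at each later age. It stood at 6436, 3261 and 1263 normalized counts in the controls and at 5169, 2727 and 243 in *Il10rb*-/- MΦs. The genotype log2 ratio of *Cp* at 12 weeks was -2.38 (-2.53 to -2.22). The 1-week libraries were pools, so part of the step from 1 to 3 weeks could not be separated from pooling or, in the controls, from sex.

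Ordered by *Fth1*, the 6 libraries ran from the 1-week control through the 3-week control, 1-week *Il10rb*-/-, 3-week *Il10rb*-/- and the 12-week control to 12-week *Il10rb*-/-. *Slc40a1* ran in exactly the reverse order, as did 1.67% of all genes past the filter (3.03% under scaling to total reads, *Slc40a1* again among them). The order of *Hfe* differed from that of *Slc40a1* in 1 place, the 2 youngest controls. The quotient of *Fth1* over *Slc40a1* normalized counts within a library was 29.3 in the 1-week control and 6285 in the 12-week *Il10rb*-/- library. The 12-week *Il10rb*-/- library at the end of this order was also the one with the most marker changes given above. At 1 week, where *Slc40a1* and *Fth1* differed too, epithelial and monocyte markers were higher in the *Il10rb*-/- pool and Y-linked genes were lower. The part of these markers and of sex in the values of *Fth1*, *Slc40a1* and *Hfe* was not tested.

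**Figure D2:**
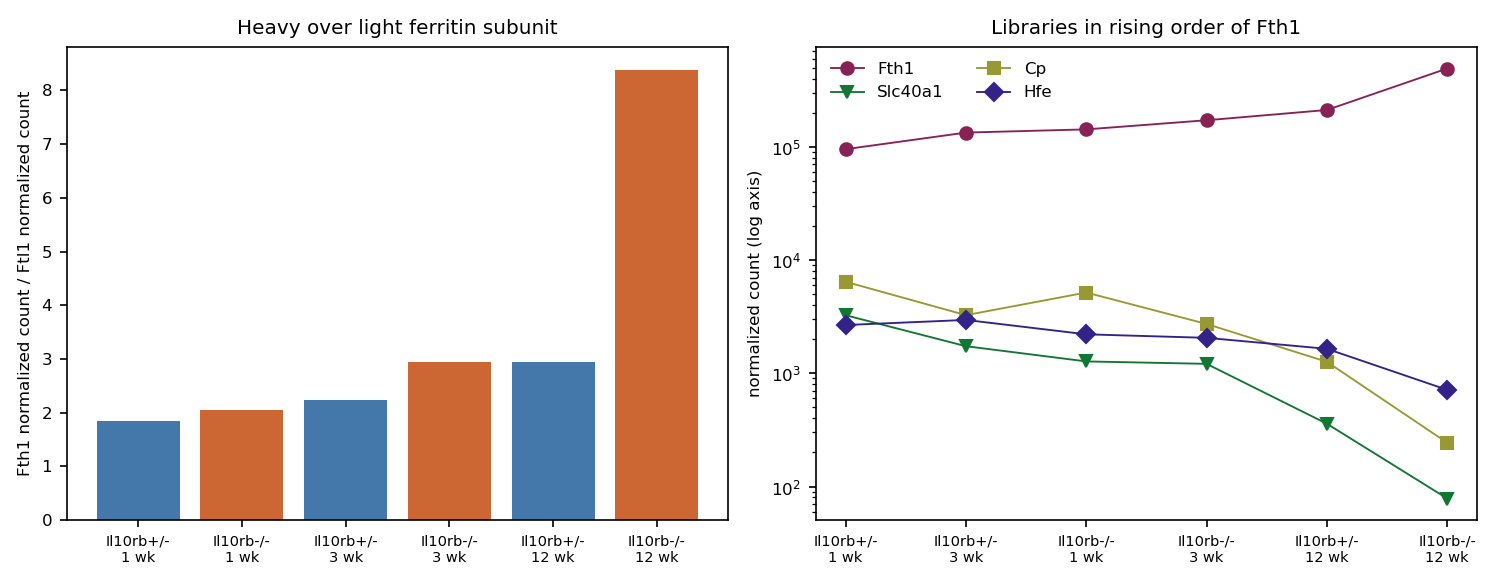
Left, the quotient of *Fth1* over *Ftl1* normalized counts in each library (blue, *Il10rb*+/-; orange, *Il10rb*-/-; linear axis from 0). Right, normalized counts (log axis) of *Fth1*, *Slc40a1*, *Cp* and *Hfe* with the 6 libraries in rising order of *Fth1*; the quotient is 8.39 in the 12-week *Il10rb*-/- library and at most 2.95 elsewhere, and *Slc40a1* is lower at each step.

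*Hfe* was lower without *Il10rb* at each age. It stood at 2669, 2959 and 1645 normalized counts in the controls and at 2209, 2057 and 714 in *Il10rb*-/- MΦs. The *Il10rb*-/- libraries at 1 and 3 weeks lay between the younger controls and the 12-week control. The log2 ratio was -0.27 (-0.37 to -0.18), -0.52 (-0.63 to -0.42) and -1.20 (-1.30 to -1.11) at the 3 ages. From 3 to 12 weeks *Hfe* was 1.80-fold lower in the controls and 2.88-fold lower in *Il10rb*-/- MΦs. Its partner in the class I fold, *B2m*, which joins many other class I proteins too, was higher in *Il10rb*-/- MΦs at each age, with 133451 against 61291 normalized counts at 12 weeks.

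**Figure D3:**
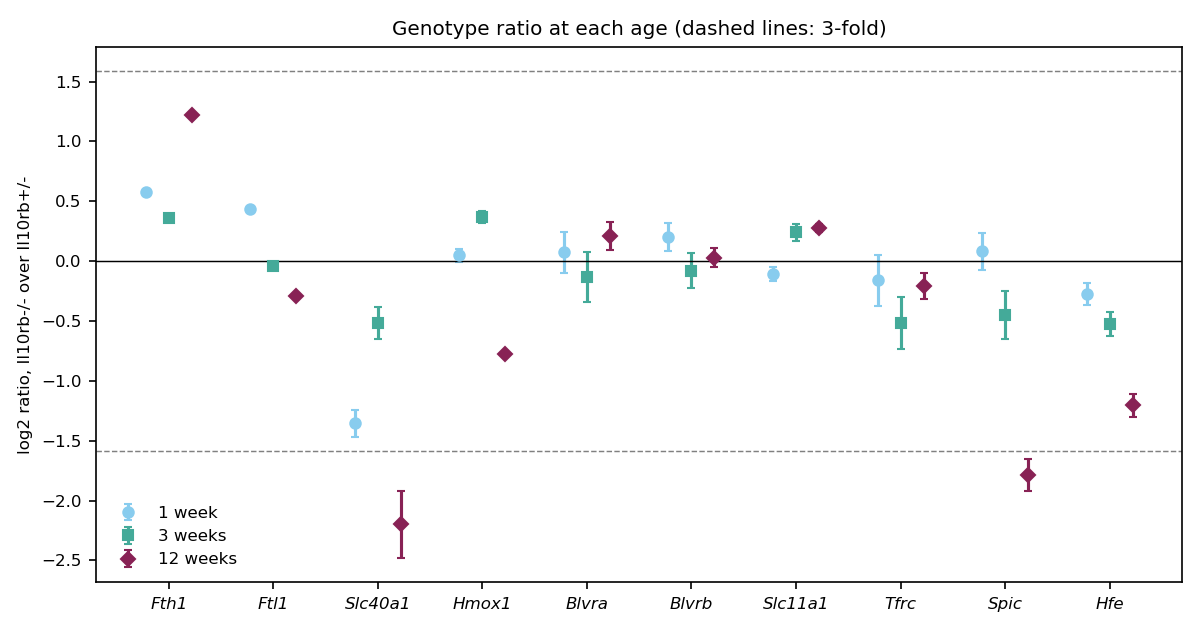
Log2 ratio of *Il10rb*-/- over *Il10rb*+/- normalized counts for the 10 genes at 1 week (circles), 3 weeks (squares) and 12 weeks (diamonds), with exact 95% counting intervals as bars and dashed lines at 3-fold. *Fth1* lies above 0 and *Slc40a1* and *Hfe* below 0 at all 3 ages, and *Slc40a1* and *Spic* pass the 3-fold line at 12 weeks only.

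Heme oxygenase 1 was higher at each later age in the controls and had opposite signs between genotypes at 3 and 12 weeks. *Hmox1* stood at 6081, 9973 and 17847 normalized counts in the controls and at 6288, 12863 and 10405 in *Il10rb*-/- MΦs. The 1-week libraries were the lowest of both genotypes, and the 12-week control was the highest. The log2 ratio was 0.05 (-0.01 to 0.11) at 1 week, 0.37 (0.32 to 0.42) at 3 weeks and -0.78 (-0.80 to -0.75) at 12 weeks. From 1 to 3 weeks *Hmox1* was 1.64-fold higher in the controls and 2.05-fold higher in *Il10rb*-/- MΦs.

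The heat shock and immediate early genes listed as signs of tissue dissociation differed in the direction of *Hmox1* in some of the comparisons. From 1 to 3 weeks the intervals of 12 of 12 lay above 0 in both genotypes. Of the 11067 genes past the filter, 2678 did in the controls and 3440 in *Il10rb*-/- MΦs. The median log2 ratio of the list was 0.75 in the controls, where *Hmox1* had 0.71, and 0.96 in *Il10rb*-/- MΦs, where *Hmox1* had 1.03. At 12 weeks 12 of 12 lay below 0 between genotypes, with a median of -0.70, beside 4240 of the 11067 genes. These intervals cover counting error only. The list was split elsewhere. At 3 weeks 8 lay above and 4 below 0 between genotypes (median 0.52). From 3 to 12 weeks in the controls 8 again lay above and 4 below (median 1.23). Both times the 8 above were the heat shock genes, and *Hmox1* was above as well. The 4 below were the immediate early genes *Fos*, *Jun*, *Atf3* and *Egr1*. From 3 to 12 weeks in *Il10rb*-/- MΦs 7 lay above and 5 below, with a median of 0.10, where *Hmox1* had -0.31. The 5 below were the same 4 genes and *Hspa1a*. *Hspa1a*, which encodes the inducible HSP70, stood at 31832, 59548 and 127596 normalized counts in the controls and at 42513, 80514 and 73204 in *Il10rb*-/- MΦs. The summed list ranged from 402764 to 930865 normalized counts over the libraries, highest where *Hmox1* was highest. The part of cell isolation in the *Hmox1* values was not tested.

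**Figure D4:**
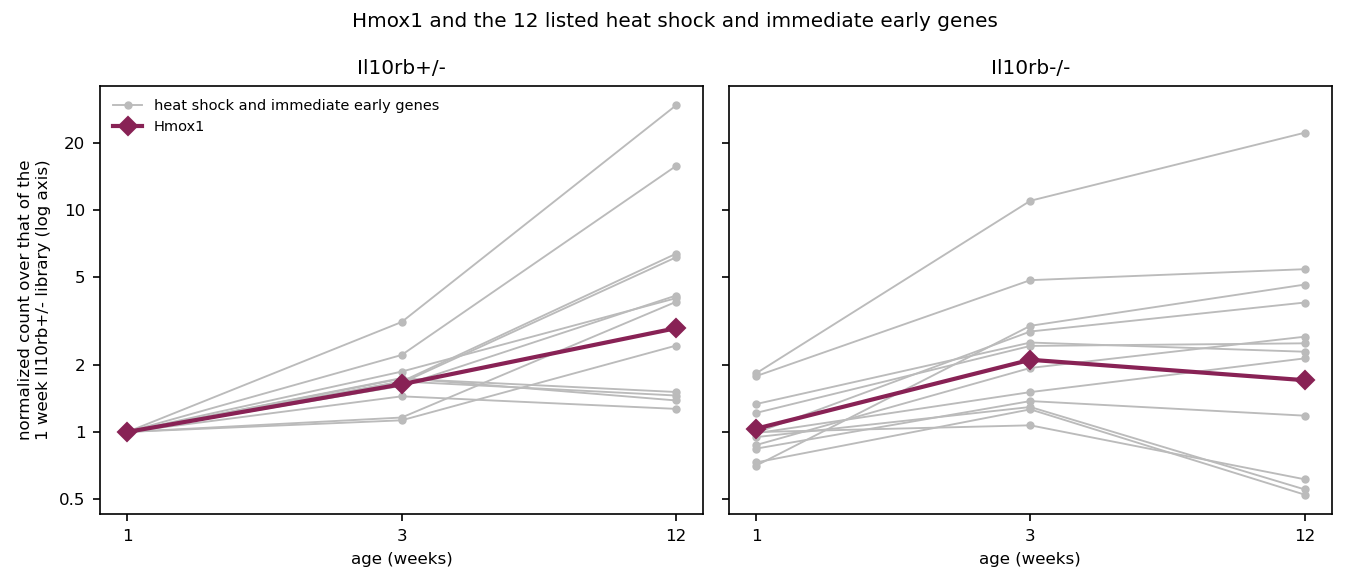
Normalized counts of *Hmox1* (diamonds) and of 12 heat shock and immediate early genes (grey) divided by the value of each gene in the 1-week *Il10rb*+/- library (log axis), against age in weeks, 1 library per point. All 12 grey lines are higher at 3 weeks than at 1 week, as is *Hmox1*, which goes from 12863 to 10405 normalized counts from 3 to 12 weeks in *Il10rb*-/- MΦs and from 9973 to 17847 in the controls.

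The next enzymes of heme breakdown hardly varied. *Blvra* ranged from 587 to 711 normalized counts over the 6 libraries and *Blvrb* from 1269 to 1507. For both, the *Il10rb*-/- libraries at 1 and 3 weeks were the highest and the lowest of all. The log2 ratios lay between -0.13 and 0.21 for *Blvra* and between -0.08 and 0.20 for *Blvrb*. Scaling libraries to their total reads moved the median of all genes by -0.22 at 12 weeks. The 12-week ratios of *Blvra* and *Blvrb*, 0.21 and 0.03, then became -0.01 and -0.19, so their direction depends on the scaling. *Hmox2*, the constitutive heme oxygenase, stood between 1088 and 1638 normalized counts.

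The transferrin receptor was the lower in *Il10rb*-/- MΦs at each age, by a small margin. *Tfrc* stood at 501, 652 and 824 normalized counts in the controls and at 448, 455 and 712 in *Il10rb*-/- MΦs. The *Il10rb*-/- libraries at 1 and 3 weeks lay below every control, and that at 12 weeks lay between the 3-week and 12-week controls. The log2 ratio was -0.16 at 1 week, with an interval that held 0 (-0.37 to 0.05), -0.52 (-0.74 to -0.30) at 3 weeks and -0.21 (-0.32 to -0.10) at 12 weeks. NRAMP1 was steady. *Slc11a1* ranged from 5256 to 8061 normalized counts, with log2 ratios of -0.11, 0.24 and 0.28 at the 3 ages. The last of these was 0.05 under scaling to total reads.

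*Spic* was level between genotypes at 1 week and lower without *Il10rb* later. It stood at 828, 732 and 1228 normalized counts in the controls and at 876, 536 and 356 in *Il10rb*-/- MΦs. The 12-week libraries were the highest and the lowest of the 6. The log2 ratio was 0.08 (-0.07 to 0.24), -0.45 (-0.65 to -0.25) and -1.79 (-1.92 to -1.65). Among the 7 red pulp MΦ markers past the filter, which include *Spic*, *Hmox1* and *Slc40a1*, 4 were over 3-fold lower at 12 weeks and 1, *Treml4*, was over 3-fold higher. *Cd5l*, another gene of red pulp MΦs, was at 8.91 normalized counts or less in every library. Of the heme-responsive regulators beside it, *Bach1*, the repressor that heme removes from *Hmox1*, stood at 3527 in the 12-week control and 1939 in 12-week *Il10rb*-/- MΦs. *Nfe2l2* (NRF2), which activates *Hmox1*, stood at 15234 and 25466. At 1 and 3 weeks 0 of the 8 genes of that list were over 3-fold apart, and at 12 weeks *Spic* alone was.

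Across all 6 libraries, limma was used to test the genotype with age as a term, so that the 3 ages stand in for replicates. It left 2 residual degrees of freedom. The test called 0 of 11067 genes (0.0%) and 0 of the 10 at an adjusted p under 0.05, with 853 genes at an unadjusted p under that value. *Il10rb*, which the mice lack, ranked first and missed it as well (log2 effect -5.68, SE 0.34, limma adjusted p = 0.0616). Of the 10 genes *Slc40a1* had the lowest p, with an effect of -1.35 (SE 0.32) and a limma adjusted p of 0.627. *Fth1* had an effect of 0.72 (SE 0.33), *Hfe* of -0.67 (SE 0.22) and *Spic* of -0.72 (SE 0.37), all with the same limma adjusted p of 0.627. *Slc40a1* and *Hfe* were the 2 of 10 at an unadjusted p under 0.05, beside 7.71% of all genes.

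For age, with the genotypes standing in for replicates, limma called 2 genes (0.0181%) from 1 to 3 weeks and 3 genes (0.0271%) from 3 to 12 weeks, and 0 of the 10 in either step. *Slc40a1* came nearest, with an effect of -3.10 (SE 0.40) from 3 to 12 weeks and a limma adjusted p of 0.0879. *Hfe* had -1.19 (SE 0.27) and *Fth1* 1.09 (SE 0.41) in that step, with limma adjusted p of 0.156 and 0.229. These 3 were at an unadjusted p under 0.05, beside 20.4% of all genes. The step of *Slc40a1* was called by limma when either 1-week library was left out (adjusted p = 0.0369 without the control and 0.0309 without *Il10rb*-/-) and when either 12-week library was (6.45e-07 without the control and 0.000301 without *Il10rb*-/-). Without the 12-week control, limma also called *Hfe* (adjusted p = 0.000246) and *Fth1* (0.0380) in that step, and it then called 3124 genes in all. *Hmox1* from 1 to 3 weeks had an effect of 0.87 (SE 0.32) and a limma adjusted p of 0.529, which was 0.0129 without the 12-week control and 0.0144 without 12-week *Il10rb*-/-. A fit without 1 library keeps 1 residual degree of freedom, and the library left alone at its age is assumed to vary like the rest.

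The wider pathway lists held larger differences than the 10 genes, most of them at 12 weeks. Of 71 other listed iron and heme genes past the filter, limma called 0 for genotype or age. For genotype the lowest adjusted p among them was 0.519 and 12 of 71 were at an unadjusted p under 0.05, beside 7.71% of all genes. With single ages, the counts over 3-fold stand beside the shares of all genes given above.

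Among genes of heme and hemoglobin uptake, *Cd163* and *Hp* went opposite ways. *Cd163*, the receptor for hemoglobin bound to haptoglobin, stood at 247, 4536 and 4112 normalized counts in the controls and at 55.4, 2901 and 52.2 in *Il10rb*-/- MΦs. Between genotypes the log2 difference was -2.16 (-2.69 to -1.65) at 1 week and -6.30 (-6.63 to -5.99) at 12 weeks, and it is also one of the resident MΦ markers. *Hp*, haptoglobin itself, stood at 102 in the 12-week control and 6209 in 12-week *Il10rb*-/- MΦs, a log2 ratio of 5.93 (5.73 to 6.13). The other 5 listed uptake genes past the filter, among them the heme transporter *Slc48a1*, were within 3-fold at each age.

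*Lcn2* and *Ltf*, whose proteins withhold iron from microbes, were higher in *Il10rb*-/- MΦs at 12 weeks, as was *Irg1* of the same list. *Hamp*, also listed, did not reach the filter and stood at 43.5 normalized counts in the 12-week control and 46.5 in 12-week *Il10rb*-/- MΦs. Of 3 past the filter, 0 were over 3-fold apart at 1 week, and 3 were over 3-fold higher at 3 and at 12 weeks. At 3 weeks *Lcn2* and *Ltf* rest on 22 reads or fewer with intervals that hold 0. Both passed the filter through the 12-week *Il10rb*-/- library alone, so their higher values at 12 weeks were set by the filter. *Irg1* (*Acod1*), the itaconate synthase of activated MΦs, which the list holds for its part in host defence, stood at 46.6, 207 and 823 normalized counts in the controls and at 121, 2109 and 29911 in *Il10rb*-/- MΦs. The ratio on the log2 scale came to 1.38 at 1 week, 3.35 (3.04 to 3.68) at 3 weeks and 5.18 (5.12 to 5.25) at 12 weeks. *Lcn2*, which binds bacterial siderophores, stood at 9.46 and 488 normalized counts at 12 weeks, and *Ltf* (lactoferrin) at 10.9 and 77.0. *Lcn2* and *Ltf* are also abundant in neutrophils, and their values were high in the library with the high neutrophil markers *S100a8* (12.8 against 1673) and *S100a9* (33.6 against 2906). The part of those cells was not tested.

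Of 9 genes of iron uptake and reduction past the filter, 2 were over 3-fold apart at 1 week and 2 others at 12 weeks. At 1 week *Steap4* and *Steap3*, iron reductases of the endosome and plasma membrane, were over 3-fold higher in *Il10rb*-/- MΦs, from 3.97 to 41.9 and from 24.8 to 82.4 normalized counts. At 12 weeks *Slc39a8* (83.7 against 12.1 normalized counts) and *Slc22a17* (log2 ratio -2.18) were over 3-fold lower. At 3 weeks 0 of the 9 were over 3-fold apart. The 1-week values of *Steap4* rest on 4 and 28 reads, and the epithelial and monocyte markers given above were higher in the same pool. Their part was not tested.

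Among regulators of iron, *Fbxl5* and *Hif1a* were over 3-fold higher at 12 weeks. *Fbxl5*, the iron sensor that marks iron regulatory protein 2 for breakdown, stood between 1218 and 1988 normalized counts in 5 libraries and at 8464 in 12-week *Il10rb*-/- MΦs. *Hif1a* stood at 5190 and 26064 and *Smad6*, an inhibitor of BMP signals, at 59.6 and 204. The mRNAs of the iron regulatory proteins themselves, *Aco1* and *Ireb2*, ranged from 905 to 1118 and from 513 to 904 normalized counts. At 1 week *Epas1* was over 3-fold higher on 6 and 16 reads.

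Of 12 heme synthesis genes past the filter 1 was over 3-fold apart between genotypes, *Alas1*, the first enzyme of the pathway, at 3120 and 9846 normalized counts at 12 weeks (log2 ratio 1.66, 1.62 to 1.70). Of 8 NRF2 and BACH1 targets, *Slc7a11*, the cystine carrier, was over 3-fold higher at 12 weeks, at 1093 in the control against 10009. Its values were 491 in the control against 1224 at 1 week, and 440 against 1211 at 3 weeks. *Txnrd1*, thioredoxin reductase, stood at 1346, 1523 and 6965 in the controls and at 2614, 2838 and 18208 in *Il10rb*-/- MΦs, higher at each age. *Hmox1*, which belongs to the same list, was not. Of 10 genes of mitochondrial iron and iron-sulfur assembly 0 were over 3-fold apart between genotypes at any age.

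**Figure D5:**
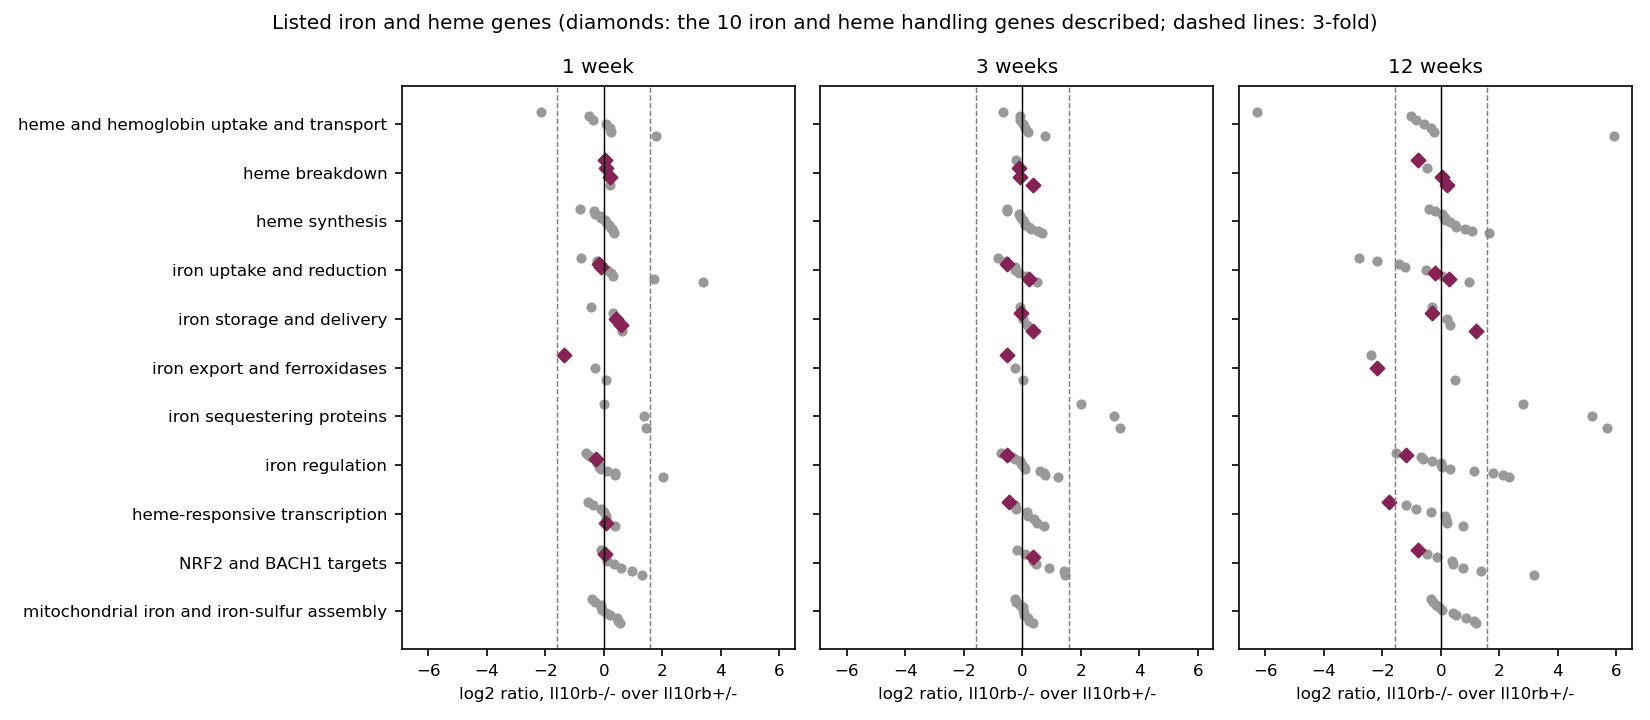
Log2 ratio of *Il10rb*-/- over *Il10rb*+/- normalized counts of the listed iron and heme genes past the filter, 1 panel per age and 1 row per list, with the 10 genes described as diamonds and dashed lines at 3-fold. Points spread widest at 12 weeks, where *Cd163* lies at -6.30 and *Hp* at 5.93.

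Levels can be set side by side only per length. For the TPM scale, reads were divided by the length of the longest principal transcript and then scaled to the same total in each library. On that scale the median levels over the 6 libraries ran from *Fth1* (13897) and *Ftl1* (7854) through *Hmox1* (711), *Slc11a1* (328), *Blvrb* (163), *Hfe* (79.3), *Blvra* (67.8), *Spic* (61.1) and *Slc40a1* (48.9) to *Tfrc* (14.2). The range of *Slc40a1*, 2.11 to 144, covers those of *Hfe*, *Blvra* and *Spic*. It was above each of them in the 1-week control and below each in the 12-week *Il10rb*-/- library, so the order of these neighbours changed between libraries. *Hmox1* (553 to 1183) does not overlap *Slc11a1* (293 to 415) or *Ftl1* (5492 to 9949). The ranges of the ferritin subunits overlapped (9544 for the lowest *Fth1* and 9949 for the highest *Ftl1*). Within each library *Fth1* was the higher, with 9544 against 7986 in the 1-week control and 29859 against 5492 in the 12-week *Il10rb*-/- library.

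By the Pearson correlation of log2(value + 1) over the 6 libraries, which share the ages, pools and depths given above, the genes most like *Hmox1* were *H2-DMb2* (r = 0.995), *Dkk3* (0.991) and *Mmrn1* (0.989), the last of which stood at 65.2 normalized counts or less. For *Slc40a1* they were *Fam175b* (r = 0.999), *Zfp955b* (0.997) and *Ulk2* (0.997). For *Spic* they were *Cd63* (r = 0.997), *Pcna* (0.987) and *Rabl2* (0.985). For *Tfrc* they were *Serpini1* (r = 0.980), *Chn2* (0.972) and *Serpinb1a* (0.966). Over so few libraries high values come easily, and 470 genes passed r = 0.95 with *Slc40a1*, 53 with *Hmox1*, 25 with *Spic* and 8 with *Tfrc*.

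Promoter windows of 300 bases from RefSeq (GRCm38.p6) were held for 8 of the 10 genes, all but *Hmox1* and *Slc40a1*. The core of the antioxidant response element, TGANNNNGC on either strand, was found in the windows of *Blvra*, *Blvrb*, *Slc11a1* and *Hfe*, and in 42.8% of all 13691 windows. The ETS site GAGGAA, the type that SPI-C binds, was found in that of *Slc11a1* alone, and in 27.3% of all windows. The free letters of the first motif can spell part of the second, so the motifs can overlap, but in the window of *Slc11a1* they lay apart.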

How the data were processed

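RNA was measured in 6 libraries, grouped by the genotype and age in the labels. The authors aligned reads to mm10 with TopHat, counted them with HTSeq and divided by DESeq size factors. Trim Galore is named in the submitters' processing notes. Versions, annotation and strand setting are not given in the sources used here. The deposited values are thus a normalized signal (normalized counts), with 0 shown as 1. In each library 100% of the other values were whole multiples of 1 step (tolerance 0.05 reads), from which reads were read back for intervals and other scalings only. Effects were fitted with limma 3.58.1 (R 4.3.3) on log2(value + 1), with a mean-variance trend, as planned. A count model, planned only for raw counts, was not used because the values are not counts and zeros are replaced. Adjustment was Benjamini-Hochberg over the 11067 genes at 50 or more in at least 1 library. P-values rest on the spread left after genotype and age are fitted, which is how far the genotype effect varies between ages. With 1 library a group they do not measure the spread between mice of a group.

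Ratios at 1 age are on values with no added pseudocount, with a 95% interval (Clopper-Pearson, from the reads of both libraries) for counting error only. The 10 genes and the pathway and marker lists were chosen with earlier results of these data known. Genes named from a list are those over 3-fold, at most the 4 largest per comparison, and members given as context. Genes named for likeness are the 3 with the highest r. *Ncoa4*, *Pcbp1*, *Pcbp2*, *Hmox2*, *Bach1*, *Nfe2l2*, *B2m*, *Aco1*, *Ireb2*, *Slc48a1* and the named markers were chosen from the lists for their role, after their values were seen. Python 3.11.15 (numpy 2.4.6, pandas 2.3.3, scipy 1.17.1) did the rest. The intervals, TMM scaling and limma fit were tested on simulated data. Depth was 6700337 to 40754971 reads on listed genes. Alternatives were a pseudocount of 10, 2 other scalings, other filters, no trend and leaving out each library.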

Additional observations from a re-analysis of the deposited data

Results flagged for a closer look

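These results had intervals on opposite sides of 0 in 2 groups under the same contrast. The smallest fold that the plan had asked of both sides was not applied. Small differences on many reads are therefore included, such as 1.03-fold for *Ftl1* at 3 weeks. With 1 library a group, none of these differences was tested. *Hmox1* had a genotype log2 ratio of 0.37 at 3 weeks and -0.78 at 12 weeks, a difference of -1.15. Seen over age it is the same difference, since its step from 3 to 12 weeks was 0.84 in *Il10rb*+/- and -0.31 in *Il10rb*-/- MΦs. The heat shock list had medians of 1.23 and 0.10 in these steps. *Spic* had a step from 3 to 12 weeks of 0.75 in *Il10rb*+/- and -0.59 in *Il10rb*-/- MΦs, a difference of -1.33. *Ftl1* had a genotype log2 ratio of 0.43 at 1 week against -0.04 at 3 weeks and -0.29 at 12 weeks, differences of -0.47 and -0.73. Its step from 1 to 3 weeks was 0.21 in *Il10rb*+/- and -0.26 in *Il10rb*-/- MΦs. On the TPM scale *Ftl1* stood at 7986 at 1 week and 7974 at 3 weeks in *Il10rb*+/- MΦs. *Slc11a1* had a genotype log2 ratio of -0.11 at 1 week against 0.24 at 3 weeks and 0.28 at 12 weeks, differences of 0.35 and 0.38, and a step from 1 to 3 weeks of -0.29 in *Il10rb*+/- and 0.06 in *Il10rb*-/- MΦs. Scaled to total reads, that last value was -0.12, on the same side of 0 as the control. *Hfe* had a step from 1 to 3 weeks of 0.15 in *Il10rb*+/- and -0.10 in *Il10rb*-/- MΦs, a difference of -0.25. Scaled to total reads, the first of these was 0.01.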

How the results depend on the processing

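For the 10 genes and their medians, 459 values in the alternatives stayed and 94 moved. A ratio stayed if it lay within the interval of the reported ratio, and a median if it lay close to the reported one. A limma effect stayed if it kept its sign and its side of the threshold. Since limma as reported called 0 of the 10, staying uncalled was likely beforehand and says little about the size of the effects. Another 8 passed limma's threshold when 1 library was left out, and 0 values that were called changed sign. Count fits with edgeR or DESeq2 were not run, because the table is normalized and shows 0 as 1. Pairing by replicate number could not be fitted, since each group holds 1 library, and the limma fit pairs the genotypes by age. The counts of all genes over 3-fold depended on low values. Without a filter they were 1124, 895 and 2947 between genotypes at 1, 3 and 12 weeks (387, 219 and 1552 with it), 1657 and 1413 from 1 to 3 weeks in *Il10rb*+/- and *Il10rb*-/- MΦs (726 and 556), and 1964 and 2753 from 3 to 12 weeks (704 and 1571). With a pseudocount of 10 they were 125 and 85 between genotypes at 1 and 3 weeks, and 440 and 313 from 1 to 3 weeks. With 50 normalized counts asked of at least 1 of the 2 libraries compared they were 133 and 105 between genotypes and 475 from 1 to 3 weeks in *Il10rb*+/- MΦs. Scaling to total reads moved the median of all genes by -0.22 at 12 weeks and by -0.42 from 3 to 12 weeks in *Il10rb*-/- MΦs, and there *Hfe* joined *Slc40a1* over 3-fold, making 2 of the 10 in place of 1. limma called 1 gene for genotype with a pseudocount of 10 (0 as reported). For age that pseudocount gave 8 genes in each step (2 and 3 as reported), the fit without a trend gave 0 in each, and total scaling gave 0 from 3 to 12 weeks. With each library left out in turn, limma called 0 to 74 genes for genotype, 1 to 1016 from 1 to 3 weeks and 1 to 3124 from 3 to 12 weeks. Of the 10 genes it called 0 to 1 and 0 to 3 in these steps, and 0 for genotype. The highest counts came without a 12-week library: 74, 988 and 3124 without the control and 63, 1016 and 657 without *Il10rb*-/-. The depth of 6700337 reads in the 3-week control limits what low genes there can show.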
